A study of Homo sapiens with 16 samples.

Results

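The comparison described here is the response of control KG-1 cells to cytarabine (AraC), measured by RNA-seq after 48 h. KG-1 is a human acute myeloid leukemia (AML) cell line. The control cells had been transduced with a lentivirus carrying a non-target shRNA (pLKO.1-puro) and selected in puromycin at 4 μg/mL. A pair of libraries from cells given AraC at 0.75 μM was compared with a pair from cells given the vehicle, 0.3% DMSO. The labels do not give the vehicle of AraC. The members are the 14098 genes with a mean of at least 10 counts over these 4 libraries, of 22842 genes with at least 1 count there and 43836 in the whole table. By the GENCODE annotation 11897 of the members are protein-coding. Just above the minimum lie 194 genes with a mean of 10 to under 11 counts, and just under it 224 genes with a mean of 9 to under 10. Because the minimum is on the mean of both groups, 440 members averaged under 10 counts in DMSO and 206 in AraC.

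The study also holds venetoclax-treated control cells (100 nM, 48 h) and cells with an shRNA against FOXM1 (FOXM1-KD) given DMSO or the same dose of AraC, each with 2 libraries, and these are used below for comparison. Both cell populations carry a lentiviral shRNA and passed the same puromycin selection, so no library here comes from untransduced cells. The study names 2 biological replicates per group without giving their cultures, so the p-values measure only the spread between these libraries, which may be partly technical.

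AraC is an analog of deoxycytidine and a mainstay of AML therapy. It enters cells through nucleoside transporters, is phosphorylated by deoxycytidine kinase, and its triphosphate is built into DNA, where it slows the polymerases and stalls replication forks. Stalled forks activate the ATR and CHK1 checkpoint, which delays entry into mitosis. Replication-dependent histone genes, the main source of new histones during S phase, are transcribed while DNA is being made, and their mRNAs end in a conserved stem-loop in place of a poly(A) tail and are degraded when DNA synthesis stops.

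The 4 libraries held 18167309 to 20535621 counts each, within a series range of 7351755 to 21362546. CD34, PTPRC, SPI1 and MYB, which mark this cell line, were present in all 4. Counts of the AraC pair differed from each other by 18.25 in chi-square per degree of freedom and those of the DMSO pair by 8.577, more than sampling noise, so each library counted as 1 replicate. Mitochondrial transcripts took 1.675% and 2.056% of the AraC libraries and 1.373% and 2.11% of the DMSO libraries. The fibroblast and epithelial markers had no member above the count minimum. The venetoclax libraries stood apart from each other, with a Pearson r of 0.966 across genes against 0.992 for the AraC pair and 0.993 for the DMSO pair. The second venetoclax library correlated with the DMSO libraries at 0.99 and 0.993, and the first at 0.977 and 0.974. FOXM1-KD cells were unlike control cells in lineage markers, with 0 to 4 counts of CD34 and 28881 to 94451 of MPO in the DMSO and AraC libraries.

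Calls required at least a 2-fold change and an adjusted p below 0.1 (edgeR's quasi-likelihood test with Benjamini-Hochberg adjustment over all 22842 genes tested). By this rule 1302 members were called, 9.24% of them. AraC raised 878 (6.23% of members) and lowered 424 (3.01%). Among protein-coding members the share was 9.07%, with 809 that rose (6.8%) and 270 that fell (2.27%). Without the fold requirement 29.8% of members passed the adjusted p. The median log2 fold change of all members was -0.02. The call rests on both AraC libraries in a way that depends on the weakly expressed genes in the fit. Leaving out either AraC library gave 0 calls when all genes were fitted, and 1274 or 1424 calls when only the members were fitted. With both libraries the fit on members alone gave 1376 calls.

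**Figure D1:**
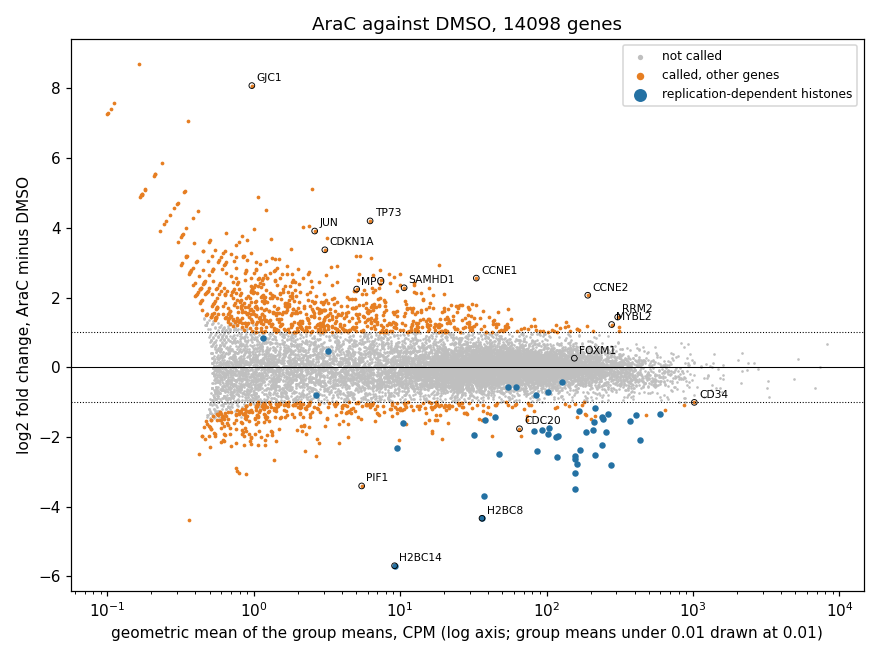
Log2 fold change of AraC over DMSO (y axis) against the geometric mean of the 2 group means in CPM (x axis, log scale) for the 14098 members. Orange points are called genes, blue points are replication-dependent histone genes, and dotted lines mark 2-fold changes. The abundant genes that fell the most are histone genes.

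Replication-dependent histones had the lowest median of the gene lists described here, at -1.83 on the log2 scale. Of 47 members, 39 fell (against 3.01% of all members) and none was called higher by edgeR or DESeq2. With each library left out in turn and only the members fitted, 38 to 40 fell. Summed over the list, histone transcripts were 0.3976% and 0.3762% of all counts in the AraC libraries and 1.266% and 1.414% in the DMSO libraries. The decrease crossed all families. All 4 linker H1 genes fell, as did 10 of 11 H2A, 13 of 16 H2B, 5 of 7 H3 and 7 of 9 H4 genes, and the family medians lay between -2.65 (H1) and -1.44 (H3).

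The stem-loop that these transcripts share is shown for the genes discussed below, since it sets them apart from other mRNAs. The sequences are the transcript ends of GENCODE release 44 (GRCh38, sense strand), with the 6-base stem arms in capitals around the 4-base loop, and up to 5 bases on each side.
H2BC14: ccaaaGGCTCTtttcAGAGCCgtcca
H2BC8: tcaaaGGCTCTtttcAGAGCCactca
H1-3: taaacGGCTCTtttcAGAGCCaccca
H2BC11: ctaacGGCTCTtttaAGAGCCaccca
H3C10: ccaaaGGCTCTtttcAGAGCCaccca
H4C9: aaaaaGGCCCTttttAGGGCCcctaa
H2AC25: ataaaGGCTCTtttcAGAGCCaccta

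The hairpins of these genes occupy chr6:27815469-27815484 (plus strand), chr6:26216218-26216233 (minus), chr6:26234217-26234232 (minus), chr6:27132321-27132336 (minus), chr6:27810516-27810531 (plus), chr6:27139654-27139669 (plus) and chr1:228457369-228457384 (minus), in the order listed. A perfect hairpin of this form (a stem opening with GG, a loop opening with TT, within the last 100 bases) was found in 41 of the 47 listed histone members (87.2%) and in 11 of the 13951 other members with a transcript (0.0788%). Among the 39 listed genes that fell it was present in 35 (89.7%). The stem GGCTCT with the loop TTTC was the most frequent form, in 25 genes, and H4 genes carried GGCCCT. Of the 11 other genes, 3 carried the histone form of the stem: H2AC25, H4C16 and the unnamed ENSG00000282988. H2AC25 and H4C16 are replication-dependent histone genes that the list had left out, and H2AC25 fell by 2.88 on the log2 scale (adjusted p = 0.000237), whereas H4C16 was at -0.75 (adjusted p = 0.0123) and was not called. The listed genes without a perfect hairpin were H2AC11, H2AC15, H2BC10, H2BC21, H3C6 and H4C13, of which the first 4 fell.

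H2BC14, a core histone H2B gene, held 24 and 27 counts after AraC and 994 and 1376 in DMSO. The groups were far apart, at 1.27 ± 0.0295 CPM and 66.2 ± 15.1 CPM (SD, n = 2), and the gene fell by 5.70 on the log2 scale (SE 0.23, adjusted p = 4.65e-10). H2BC8 held 139 and 186 counts against 2587 and 3249, a change of -4.33 (adjusted p = 4.65e-10). H1-3, a linker histone, held 203 and 210 counts against 2159 and 2651, a change of -3.71 (adjusted p = 8.53e-10). H2BC11, among the more abundant, went from 8671 and 10154 counts to 965 and 909. In each of these genes both AraC libraries lay below both DMSO libraries. H2AC8, H3C10, H1-4, H2BC5, H2BC18 and H4C9 also fell, by 2.56 to 3.05 on the log2 scale.

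**Figure D2:**
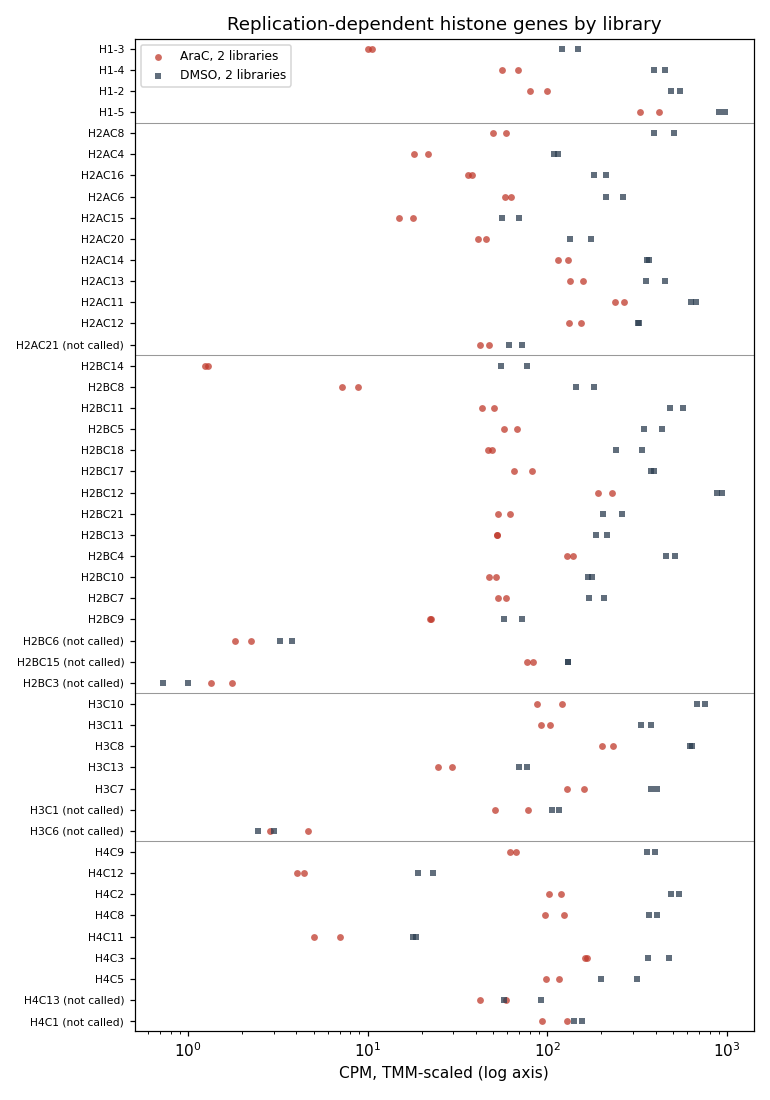
CPM (x axis, log scale, scaled by TMM) of the 47 replication-dependent histone members in each library, grouped by family from H1 at the top to H4 at the bottom. Circles are the 2 AraC libraries and squares the 2 DMSO libraries; AraC lies to the left of DMSO in 44 genes, overlaps it in H3C6 and H4C13, and lies to the right in H2BC3.

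Some histone genes were not called. H2BC3 was at 0.85 on the log2 scale, with 26 and 37 counts after AraC and 13 and 18 in DMSO (adjusted p = 0.158). H3C6 was at 0.46 (adjusted p = 0.344), and H3C1, H2BC6, H2BC15, H2AC21, H4C13 and H4C1 were between -0.79 and -0.42. The list of replication-independent histones had a median of -0.33 over 11 members. Of these only H1-10 was called, with 706 and 642 counts after AraC and 2238 and 2481 in DMSO (-1.97, adjusted p = 2.66e-07). H3-3B was at -0.33, H2AZ1 at -0.19 and H2AX, the variant phosphorylated at DNA breaks, at 0.10, none of them called.

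None of the 19 genes for histone transcription, mRNA processing and deposition was called by edgeR or DESeq2, and their median was 0.08. At an unadjusted p below 0.05 there were 14, a share to be read against 38.6% of all members. SLBP, which binds the stem-loop, held 4307 and 4678 counts after AraC and 2499 and 2449 in DMSO. Its log2 fold change of 0.70 was larger than the spread between libraries (SE 0.02, adjusted p = 0.000698) but under 2-fold. The histone chaperones ASF1B and CHAF1B stood at 0.92 and 0.74 in the same way (adjusted p = 0.00031 and 0.0012). NPAT, the coactivator of histone transcription, was at 0.35 (adjusted p = 0.102).

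For 36 of the called histone genes a RefSeq promoter (250 bases before to 50 after the start, GRCh38.p14) could be searched. A TATA box (TATAAA, either strand) was in 24 of them (66.7%) and a CCAAT box (CCAAT, either strand) in 31 (86.1%). The shares among all 27305 promoters of the table were 12% and 35.7%, and among other members that fell 9.5% and 39.4%. The promoters of H2BC8 and H1-3 are printed with both motifs in capitals, on the strand of the gene.
H2BC8, chr6:26216639-26216938 (minus strand): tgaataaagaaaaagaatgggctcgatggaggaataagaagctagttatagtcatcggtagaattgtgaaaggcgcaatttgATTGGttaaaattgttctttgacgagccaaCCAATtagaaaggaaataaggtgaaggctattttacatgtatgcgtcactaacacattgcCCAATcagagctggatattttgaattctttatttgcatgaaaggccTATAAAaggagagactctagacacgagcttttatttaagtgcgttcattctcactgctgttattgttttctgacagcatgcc
H1-3, chr6:26234938-26235237 (minus strand): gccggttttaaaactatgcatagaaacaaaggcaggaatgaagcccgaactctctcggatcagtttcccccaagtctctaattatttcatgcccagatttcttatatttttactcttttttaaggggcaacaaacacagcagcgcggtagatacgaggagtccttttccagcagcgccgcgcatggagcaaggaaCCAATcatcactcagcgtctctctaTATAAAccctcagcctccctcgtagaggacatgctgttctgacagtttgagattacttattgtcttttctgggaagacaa

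Several genes that drive entry into S phase rose, where 6.23% of all members did. Of 16 members of the G1/S cyclin and E2F list 5 rose and none fell, with a median of 0.51, and 5 rose in each fit on members with a library left out. CCNE1, which encodes cyclin E1 (chr19:29811991-29824312), held 1603 and 1620 counts after AraC and 246 and 243 in DMSO. At 80.4 ± 4.23 CPM against 13.7 ± 0.124 (SD, n = 2) the groups did not overlap, and the gene rose 5.88-fold (log2 2.56, SE 0.05, adjusted p = 2.02e-08). CCNE2, its paralog, rose by a similar amount, from 1641 and 1706 counts to 6899 and 8865 (log2 2.07, adjusted p = 2.55e-08). It overlaps INTS8 and NDUFAF6 on the other strand, which had 3496 to 4527 and 1299 to 1799 counts and were not called. E2F2, an activator of S-phase genes, rose by 1.30, and the E2F repressors E2F7 and E2F8 by 1.68 and 1.18.

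Few genes of dNTP supply, DNA replication and recombination were called, where 9.24% of all members were. RRM2, the S-phase subunit of ribonucleotide reductase, was the only gene of the dNTP supply list called (1 of 14), at 9172 and 11117 counts against 3228 and 3428 (log2 1.44, adjusted p = 7.05e-07). In the DNA replication list 1 of 38 members was called, CLSPN, the claspin adaptor of CHK1, at 4045 and 5454 counts against 1831 and 2134 (log2 1.09, adjusted p = 5.73e-05). The list's median was 0.24, and 15 members passed the adjusted p alone as higher and 5 as lower, where 15.5% and 14.3% of all members did. EXO1, a nuclease of resected DNA ends, and RBBP8 (CtIP), which starts resection, were the called genes of the homologous recombination and Fanconi list (2 of 26), at 1.17 and 1.01. CLSPN and RBBP8 were near the 2-fold limit and lost the call without AraC 2 or DMSO 1 when only the members were fitted.

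Some mitotic genes fell, where 3.01% of all members did. Of 39 members of the mitosis and G2/M list 5 fell and none rose, with a median of -0.20, and 4 to 6 fell in the fits on members with a library left out. CDC20, the activator of the anaphase-promoting complex, held 763 and 653 counts after AraC and 2172 and 2141 in DMSO (log2 -1.77, SE 0.17, adjusted p = 9.76e-07). PLK1, a mitotic kinase, held 458 and 397 against 1080 and 1118 (log2 -1.52, adjusted p = 8.9e-06). KIF20A, PTTG1 (securin) and HMMR fell by 1.30, 1.21 and 1.09, and HMMR lost its call without AraC 1 or DMSO 2 in the fit on members. KIF20A overlaps BRD8 and CDC23 on the other strand, whose log2 fold changes were -0.38 and -0.16. Among mitotic genes of the list 33 have a promoter in the table, and 22 of these (66.7%) hold a CHR element (TTTGAA, either strand), against 15.4% of all promoters. The share was 10.1% in promoters of all members and 11.8% in those of members outside the histone list that fell. The promoters of CDC20 and PLK1 are printed with CHR elements and CCAAT boxes in capitals.
CDC20, chr1:43358731-43359030 (plus strand): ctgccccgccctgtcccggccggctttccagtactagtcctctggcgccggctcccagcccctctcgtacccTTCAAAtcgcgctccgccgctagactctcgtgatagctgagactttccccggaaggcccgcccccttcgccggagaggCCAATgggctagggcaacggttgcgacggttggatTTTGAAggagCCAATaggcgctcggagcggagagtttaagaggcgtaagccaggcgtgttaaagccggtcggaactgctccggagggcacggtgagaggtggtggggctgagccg
PLK1, chr16:23678639-23678938 (plus strand): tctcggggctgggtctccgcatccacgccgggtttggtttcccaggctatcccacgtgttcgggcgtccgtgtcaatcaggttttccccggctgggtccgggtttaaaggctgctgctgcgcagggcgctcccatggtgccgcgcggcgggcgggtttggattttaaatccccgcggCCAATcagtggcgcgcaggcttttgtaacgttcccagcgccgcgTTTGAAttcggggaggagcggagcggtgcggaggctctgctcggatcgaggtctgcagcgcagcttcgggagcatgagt

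FOXM1, the transcription factor that drives many mitotic genes and the gene knocked down in this study, was not called. It held 3497 and 3284 counts after AraC and 2554 and 2515 in DMSO, a log2 fold change of 0.26 (SE 0.11, adjusted p = 0.206). Both AraC libraries were above both DMSO libraries, as in 30.9% of all members. RHNO1, which overlaps FOXM1 on the other strand, was at 0.36 and was not called. MYBL2, which acts with the MuvB complex ahead of FOXM1, was the only called gene of the list of FOXM1 and MuvB partners. It was 1 of 11 members, where 9.24% of all members were called. MYBL2 held 8684 and 8352 counts against 3198 and 3317 (log2 1.23, adjusted p = 3.55e-06). PIF1, a DNA helicase, fell the most of all called protein-coding genes outside the histones with at least 10 counts in each library. It held 36 and 31 counts after AraC and 344 and 293 in DMSO (log2 -3.41, SE 0.20, adjusted p = 7.87e-08).

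TP73 rose the most of the called protein-coding genes with at least 10 counts in each library. This gene of a transcription factor (chr1:3652516-3736201) held 555 and 517 counts after AraC and 18 and 34 in DMSO. At 26.8 ± 2.95 CPM against 1.45 ± 0.631 (SD, n = 2) it rose 18.4-fold (log2 4.20, SE 0.47, adjusted p = 2.02e-08). TP73-AS1 and WRAP73 overlap it on the other strand and were not called, at -0.43 and 0.02. An E2F element (TTCCCGC, either strand) was in 6.56% of all promoters, in 10.2% of those of members and in 7.1% of those of members that rose. It was in 43.8% of the 32 promoters of the DNA replication list and in 8.33% of the 12 of the G1/S cyclin and E2F list. The promoters of E2F7 and RRM2 held none. The promoter of TP73 is printed with its E2F elements in capitals.
TP73, chr1:3652266-3652565 (plus strand): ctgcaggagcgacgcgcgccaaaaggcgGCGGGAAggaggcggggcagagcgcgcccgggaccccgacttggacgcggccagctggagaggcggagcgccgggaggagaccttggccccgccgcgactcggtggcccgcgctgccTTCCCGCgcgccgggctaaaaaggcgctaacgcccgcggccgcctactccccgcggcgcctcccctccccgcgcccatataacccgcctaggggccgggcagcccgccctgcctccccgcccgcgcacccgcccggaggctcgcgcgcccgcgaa

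In the CDK inhibitor list 2 of 5 members rose and none fell, with a median of 0.51, and in the list of death receptors and caspases 1 of 20 rose (where 6.23% of all members did) and none fell, with a median of 0.24. CDKN1A, the gene of the CDK inhibitor p21, held 182 and 215 counts after AraC and 18 and 16 in DMSO, a 10.3-fold rise (log2 3.37, SE 0.10, adjusted p = 3.51e-07). BTG2, an antiproliferative gene, rose from 223 and 281 counts to 980 and 984 (log2 1.80). PLK2, a stress-induced kinase, and the TRAIL receptors TNFRSF10C and TNFRSF10B rose by 1.10, 1.95 and 1.14. TNFRSF10B overlaps RHOBTB2 on the other strand, which was at 0.87. It lost its call without AraC 1 or DMSO 2 in the fit on members. CDKN1C (p57) rose by 2.24, from 14 and 12 counts to 80 and 58. No member of the anti-apoptotic BCL2 list (0 of 5) was called by edgeR or DESeq2, and 1 had an unadjusted p below 0.05. BCL2 was at 0.30 (adjusted p = 0.132) and MCL1 at 0.18 (adjusted p = 0.429). In the list of BH3-only genes and effectors 0 of 9 were called by either tool, with 5 at an unadjusted p below 0.05, and BCL2L11 (BIM) was at 0.89 (adjusted p = 0.00124).

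**Figure D3:**
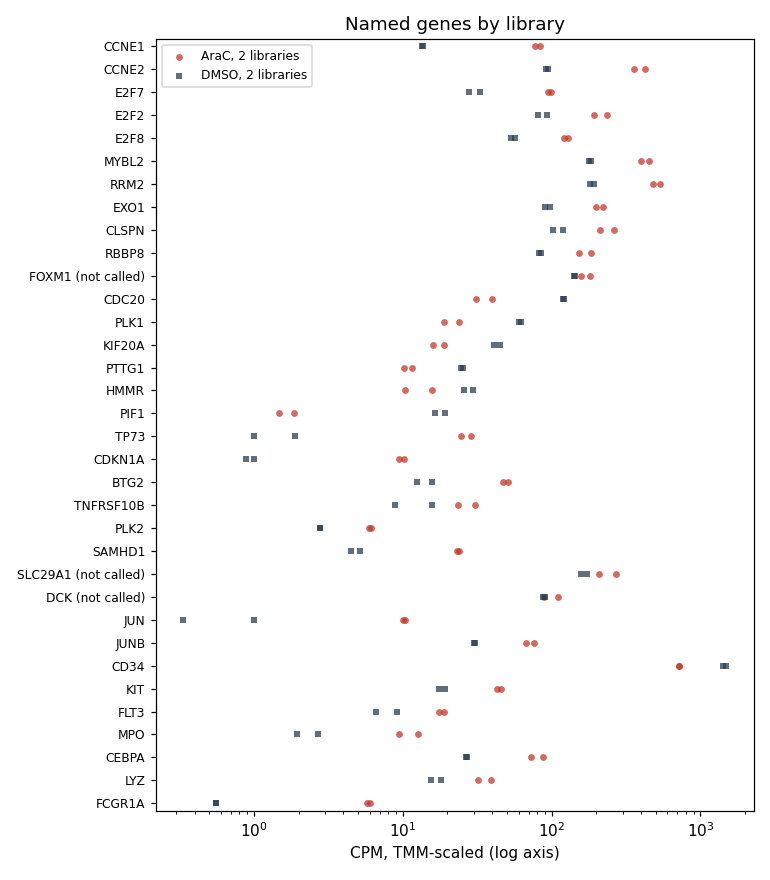
CPM (x axis, log scale, scaled by TMM) of 34 named genes in each library. Circles are the 2 AraC libraries and squares the 2 DMSO libraries; cyclin E, E2F, TP73 and CDKN1A lie to the right after AraC, and CDC20, PLK1, PIF1 and CD34 to the left.

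Of the 15 members of the lists of genes that handle AraC itself, SAMHD1 was the only call by edgeR and by DESeq2. It encodes a triphosphohydrolase that cleaves dNTPs and the active triphosphate of AraC. SAMHD1 (chr20:36890229-36951893) held 459 and 483 counts after AraC and 80 and 93 in DMSO. At 23.5 ± 0.564 CPM against 4.83 ± 0.511 (SD, n = 2) it rose 4.85-fold (log2 2.28, SE 0.11, adjusted p = 7.67e-07), and the groups did not overlap. Against venetoclax, with 29 and 124 counts, its log2 fold change was 2.51.

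The other genes of AraC uptake and metabolism stayed under 2-fold, with 2 of 6 uptake and activation genes at an unadjusted p below 0.05. SLC29A1 (ENT1), the main transporter that takes AraC up, held 5219 and 4387 counts against 3107 and 2810 (log2 0.54, adjusted p = 0.0126). DCK, which adds the rate-limiting phosphate, was at 0.16 (adjusted p = 0.558) and overlaps MOB1B on the same strand. CMPK1, NME1, SLC29A2 and NME2 were at 0.30, 0.08, -0.41 and -0.29, none with an adjusted p below 0.1. Among genes of inactivation and export, ABCC4 and ABCC5 were at 0.38 and 0.43 (adjusted p = 0.0576 and 0.0501), and NT5C and NT5M, nucleotidases, at -0.51 and -0.91 (adjusted p = 0.0557 and 0.00255). NT5C2, a nucleotidase, DCTD, the deoxycytidylate deaminase, NT5C3A and ABCC10 were at -0.05, 0.03, 0.41 and -0.39, with adjusted p of 0.149 to 0.908.

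Part of the markers of myeloid differentiation rose, where 6.23% of all members did. Of 20 members of the myeloid list 10 rose and none fell, and the median of 1.00 was above that of the other lists described here. In the fits on members with a library left out, 9 or 10 rose. CEBPA, a factor of granulocyte commitment, held 1690 and 1524 counts after AraC and 486 and 480 in DMSO (log2 1.57, adjusted p = 3.55e-06). FCGR1A (CD64) held 110 and 126 against 10 and 10 (log2 3.38, adjusted p = 1.7e-06). It overlaps H2BC18, which fell. FCGR2A, VCAN and LYZ (lysozyme) rose by 1.66, 1.37 and 1.09, and LYZ lost its call without AraC 2 or DMSO 2 in the fit on members. MPO, the peroxidase of granules, rose from 35 and 48 counts to 242 and 197 (log2 2.24, adjusted p = 1.32e-05), while the FOXM1-KD libraries given AraC or DMSO held 28881 to 94451 counts of MPO.

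CD34, the progenitor antigen, held 13875 and 15037 counts after AraC and 25160 and 26713 in DMSO, a log2 fold change of -1.01 (SE 0.04, adjusted p = 5.63e-06). The change lies on the 2-fold limit and was under it with another scaling, at -0.94 by total counts and -0.99 by DESeq2's size factors. In the same list of stem and AML surface antigens KIT, FLT3, IL2RA, CXCR4 and HAVCR2 rose, by 1.26, 1.21, 1.23, 1.47 and 1.03. KIT went from 313 and 346 counts to 821 and 956, and FLT3 from 163 and 119 to 335 and 396. HAVCR2, which overlaps MED7, lost its call without AraC 1 or DMSO 2 in the fit on members.

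Other lineage lists were called in part, where 6.23% of all members rose. In the lymphoid list 4 of 9 members rose: CD2, CD8A, NKG7 and JCHAIN, by 2.56, 2.49, 1.19 and 1.24. NKG7, a granule gene of cytotoxic lymphocytes, held 1750 and 1383 counts after AraC and 589 and 639 in DMSO, while the other 3 held 4 to 21 in DMSO. The summed level of the list was 153.1 and 118.7 CPM in the AraC libraries and 62.58 and 69.24 CPM in the DMSO libraries, and 3 of its 18 genes had no count. IRF8, a factor of monocyte and dendritic cells, was the only called gene of 22 hematopoietic transcription factors, at 24 and 23 counts against 3 and 2. CD2 and IRF8 averaged under 10 counts in DMSO and are members only through their AraC counts. The erythroid and megakaryocyte list had no call by edgeR or DESeq2 among 6 members (4 at an unadjusted p below 0.05), and 9 of its 24 genes had no count. In bulk RNA fewer cells of a type cannot be told apart from less RNA per cell.

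Some immediate early and MAPK-feedback genes rose. Of 24 members of the AP-1 list 9 rose (against 6.23% of all members) and none fell, with a median of 0.66. EGR1, among the 9, averaged under 10 counts in DMSO (0.447 and 0.223 CPM) and is a member only through its AraC counts. JUN held 192 and 216 counts after AraC and 18 and 6 in DMSO (log2 3.91, SE 0.78, adjusted p = 7.93e-07). The venetoclax libraries held 181 and 13 counts of JUN, one near each group. JUNB rose by 1.25, KLF2 by 1.76, and DUSP5, DUSP6 and SPRY4, inhibitors of ERK signaling, by 2.45, 1.04 and 1.68. DUSP6, at 8471 and 9421 counts against 3690 and 4078, was the most abundant of these, and it lost its call without DMSO 1 in the fit on members.

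The interferon-stimulated list was mixed. Of 36 members 7 rose (against 6.23% of all members) and none fell, with a median of 0.48. USP18, a negative regulator of interferon signaling, held 28 and 29 counts after AraC and 1 and 2 in DMSO (ratio 17.8, exact 95% interval 5.8 to 89, edgeR adjusted p = 0.000271). OAS1, OAS2 and OASL, sensors of double-stranded RNA and their relative, had 18 to 42 counts after AraC and 3 to 8 in DMSO. They rose by 2.24, 1.86 and 2.23. USP18 and these OAS genes averaged under 10 counts in DMSO and are members only through their AraC counts. Genes so low in DMSO can be members only if they are higher after AraC. GBP2 was the most abundant of those that rose, at 962 and 1137 counts against 421 and 282 (log2 1.41). Without the fold requirement 16 of the list passed the adjusted p as higher and 5 as lower. The latter, named with their values in view, included abundant genes. CMPK2 was at 291 CPM after AraC and 413 in DMSO (log2 -0.51), EPSTI1 at 148 and 283 (-0.94) and RSAD2 at 108 and 177 (-0.71), whereas 5 of the 7 that rose were below 2 CPM after AraC. An ISRE motif (GAAA and GAAA with any 2 bases between them, either strand) was in 17 of the 27 promoters of the list (63%), against 3.65% of all promoters and 4.52% of those of members that rose. In the NF-kB and cytokine list 4 of 25 rose (CCL5, CD83, CXCL8 and TRAF1, by 1.71, 1.37, 1.45 and 1.04), and 5 to 9 rose in the fits on members with a library left out. Among all members 6.23% rose. HMOX1 was the only called gene of the NRF2 list, from 4 and 4 counts to 48 and 39. It is a member only through its AraC counts.

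**Figure D4:**
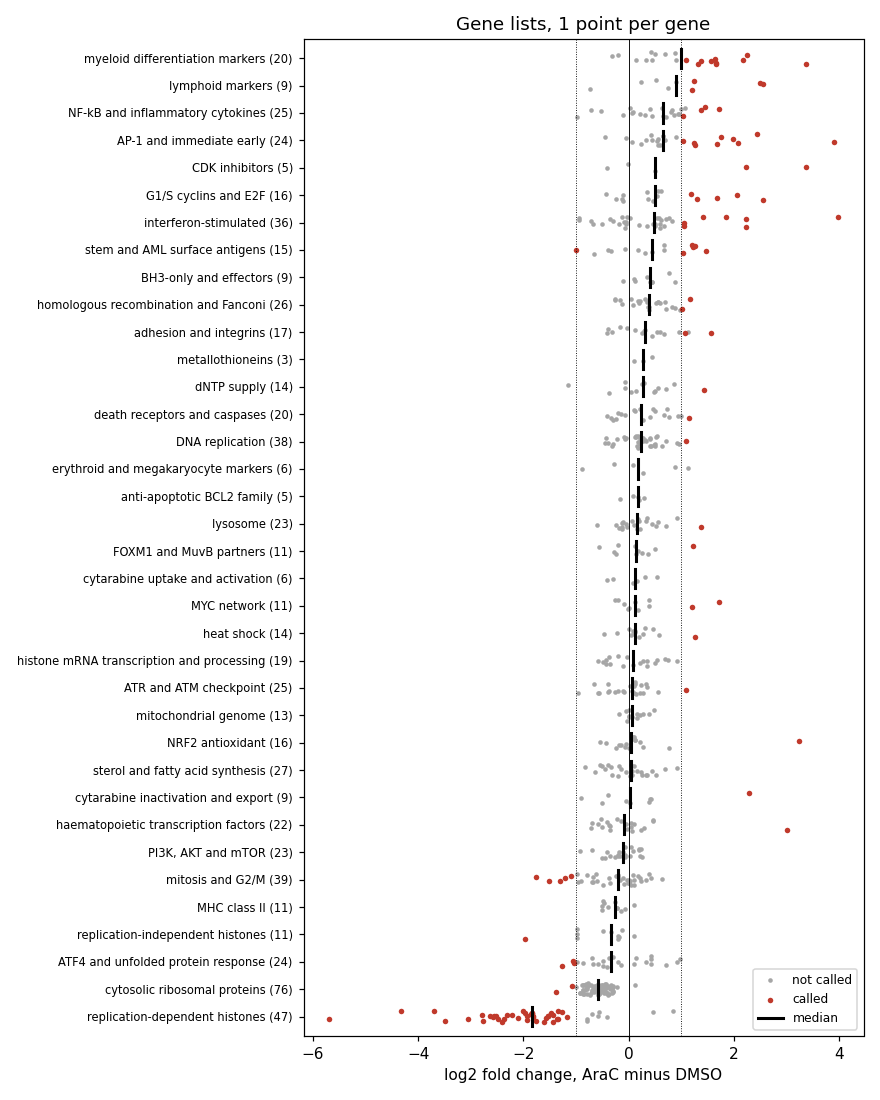
Log2 fold change of AraC over DMSO (x axis) of the members of each gene list (y axis, number of members in brackets), 1 point per gene. Called genes are red, black bars are medians and dotted lines mark 2-fold; the histone list lies apart on the left, and the myeloid list has the highest median of the lists drawn.

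Most ribosomal protein genes were lower after AraC by less than 2-fold. Of 76 cytosolic ribosomal protein genes 69 passed the adjusted p as lower (14.3% of all members did), with a median of -0.57, although only RPS29 and RPL13A were called (1 to 8 in the fits on members with a library left out). RPS29 went from 5283 and 5373 counts to 2483 and 2100 (log2 -1.38, adjusted p = 4.44e-06). Ribosomal protein transcripts were 3.294% and 3.098% of the AraC libraries and 4.602% and 4.779% of the DMSO libraries, and the median was -0.50 by total counts and -0.56 by DESeq2's size factors. In the ATF4 and unfolded protein response list 3 of 24 members fell, where 3.01% of all members did. These were the ATF4 targets CHAC1, PSAT1 and ASNS, which fell by 1.27, 1.06 and 1.03. Without the fold requirement 12 of the list passed the adjusted p as lower and 4 as higher. PPP1R15A, TRIB3 and DDIT3, named with their values in view, were among the latter, at 0.99, 0.92 and 0.71. ASNS and PSAT1 fell under the 2-fold limit when scaled by total counts alone. In the lists of PI3K, AKT and mTOR genes (23 members) and MHC class II (11) none was called by edgeR or DESeq2, 6 in each had an unadjusted p below 0.05, and the medians were -0.11 and -0.26.

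A few genes were near silent in DMSO. Among the members that rose, 47 had at most 3 counts in both DMSO libraries, and these are members only through their AraC counts. GJC1, the gap junction protein connexin 45, held 307 and 373 counts after AraC and 0 and 2 in DMSO, a ratio of 319 in summed counts per library size (exact 95% interval 87.9 to 2640, counting error only). NCS1, a neuronal calcium sensor, held 100 and 83 counts against 0 and 1, and CSPG4, a proteoglycan, 41 and 40 against 0 and 2. Their ratios were 172 (30.4 to 6810) and 38 (10.2 to 319). GJB2 (connexin 26) had no count in DMSO and 49 and 61 after AraC, at least 16.3-fold higher against a floor of 3 counts per library. In the other direction H2BC12L, a histone H2B gene, held 2 and 1 counts after AraC and 26 and 35 in DMSO, a ratio of 21.7 (7.08 to 108). Other strong risers were GAS7, FHDC1, CUX2, ID2, PEG10, CD180 and TMEM200A, by 2.88 to 3.71 on the log2 scale. PEG10 was the most abundant, at 903 and 1162 counts against 149 and 90.

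Base composition moved with the calls. Among protein-coding members in the lowest of 5 equal bins of transcript GC content (29.2% to 40.2%), 3.07% rose and 0.882% fell. In the highest bin (57.9% to 76%), 11.7% rose and 4.37% fell. The median log2 fold changes of these bins were 0.08 and -0.06. Of 5 equal bins of transcript length the shortest held 5% that fell and the longest 0.966%. The part of GC and length in the calls was not tested.

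Venetoclax gave a comparison with a drug that does not target DNA synthesis. It blocks BCL2 and so releases apoptosis. The comparison shares the AraC libraries with the one above and is given as values side by side. AraC against venetoclax called 934 members (6.63%), 634 as higher (4.5%) and 300 as lower (2.13%), but 56 (0.397%) when only the members were fitted, or 1004 when that fit had the replicate number as a block. It called 79 or 76 without AraC 1 or AraC 2, and 1302 or 2414 without the first or second venetoclax library. In log2 fold change against venetoclax CCNE1 was at 2.56, CCNE2 at 2.15, E2F7 at 1.94, RRM2 at 1.68, TP73 at 3.75 and PIF1 at -2.99, and all of these were called under both sets of genes. H2BC14, with 76 and 1319 counts in venetoclax, was at -4.81 and H2BC8, with 381 and 2676, at -3.31, called in the fit on all genes and not in the fit on members without the block. CDKN1A, at 91 and 7 counts in venetoclax, was at 1.66. Several other genes that rose against DMSO were not called against venetoclax in the fits without the block. CDKN1C was at -0.06, HMOX1 at -0.87, CXCL8 at -0.67, TRAF1 at -0.26 and NKG7 at 0.29. In the first and second venetoclax libraries CDKN1C held 97 and 18 counts, HMOX1 114 and 10, and CXCL8 67 and 11. TRAF1 held 157 and 46 there, and NKG7 1543 and 520. Each was higher in the first library, and the second was nearer the DMSO counts. The list medians against venetoclax were 0.005 for NF-kB and 0.04 for mitosis, with -1.2 for histones and 1.68 for the myeloid list. Of members that rose against DMSO 97.5% kept the sign, and of those that fell 99.3%. The second venetoclax library was close to the DMSO libraries (Pearson r of 0.99 and 0.993), so these shares are not a separate test. Histones of the list were 0.6574% of the counts of the first venetoclax library and 1.074% of the second, both between the AraC and DMSO values.

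The same dose of AraC was given to FOXM1-KD cells, whose libraries are separate. FOXM1 in DMSO was at 923 and 1551 counts in FOXM1-KD and at 2554 and 2515 in control cells. After AraC it held 2057 and 2161 counts in FOXM1-KD cells, near its level in control cells given DMSO. Its log2 effect there was 0.87 (edgeR adjusted p = 9.15e-05), under 2-fold, and the difference from control cells was not called. AraC raised 1615 of the members in FOXM1-KD cells (11.5%) and lowered 393 (2.79%). Of genes that rose in control cells 501 also rose in FOXM1-KD cells, 57.1% of the first list and 31% of the second. Of those that fell 93 also fell, 21.9% and 23.7% of the lists. The members were chosen on counts of control cells, and some, such as CD34 and H2BC14, were near silent in FOXM1-KD cells. The part of this in the shares was not tested. A difference between the effects (interaction term, edgeR's quasi-likelihood test over 8 libraries) was called in 1205 members (8.55%), of which 929 (6.59%) were more positive and 276 (1.96%) more negative in FOXM1-KD cells. This count fell to 380 and 265 without AraC 1 and AraC 2 of the control cells, and to 479 and 770 without the first FOXM1-KD AraC and the first control DMSO library.

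Histones fell in both populations, with 32 of the 47 members called lower in FOXM1-KD cells and a median of -1.62. H1-3 fell there by 2.86 and H2BC11 by 3.01. The difference was called in 3 list members: H4C11 (1.36) and H4C12 (2.41), which were called lower in control cells and not in FOXM1-KD cells, and H2BC3 (-3.87), which was called lower in FOXM1-KD cells and not called in control cells. Without the fold requirement 6 differences passed the adjusted p as more positive in FOXM1-KD cells and 1 as more negative. H1-3, H1-4, H3C10 and H4C9 were among the 6, with differences of 0.84, 0.83, 0.82 and 0.93 (adjusted p = 0.0387, 0.0176, 0.0203 and 0.0125). Other called members were lower in FOXM1-KD than in control cells. H2BC4 was at -2.14 and -1.87 there, H2BC13 at -2.07 and -1.92, and H2AC12 at -1.53 and -1.17. H2BC14 had 0 to 2 counts in FOXM1-KD cells and gives no comparison. H2BC9, H3C7 and H3C6 had a fitted effect of 0 in FOXM1-KD cells and give none either. H3C8, H1-5 and H4C12, which fell in control cells, had positive fitted effects in FOXM1-KD cells (3.24, 1.31 and 0.11), where none was called. CCNE2, E2F2, E2F7, E2F8, MYBL2 and RRM2 rose in both, by 1.38 to 2.47 in FOXM1-KD cells, with no called difference. CCNE1 rose less there, at 1.15 (difference -1.42, adjusted p = 0.000263). The mitotic genes CDC20, PLK1, KIF20A and HMMR were at -0.53, -0.23, -0.23 and 0.06 in FOXM1-KD cells, and their differences were called. PTTG1 was at -0.48 there, and its difference of 0.72 was not called (adjusted p = 0.223). The FOXM1-KD libraries in DMSO held 1726 and 3566 counts of CDC20, a wide spread. SAMHD1 was at 0.31 there, with 4319 and 5133 counts after AraC and 2904 and 5225 in DMSO, far above its level in control cells, and the difference of -1.98 was called (adjusted p = 1.63e-09). CDKN1A rose more, by 5.35 (difference 1.98, adjusted p = 0.0014).

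**Figure D5:**
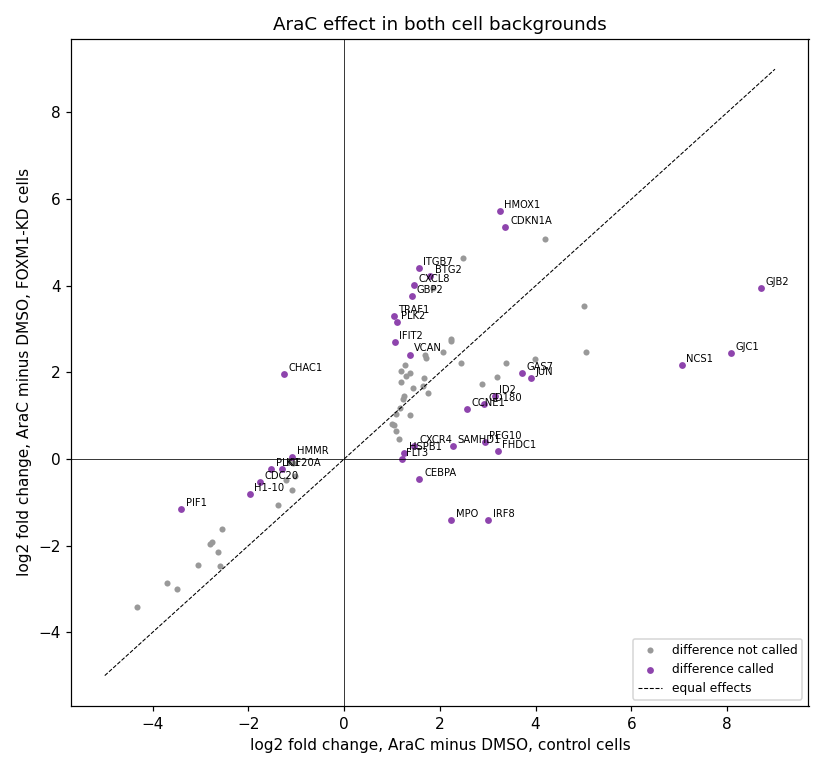
Log2 fold change of AraC over DMSO in control cells (x axis) and FOXM1-KD cells (y axis) for 81 called named genes with a mean of at least 10 counts in the FOXM1-KD libraries. Purple points, labelled, are the 34 genes with a called difference. The replication-dependent histone genes drawn, at the lower left, lie above the dashed line of equal effects. They were picked for a low fold or small p in control cells. CHAC1, MPO, CEBPA and IRF8, among others, have opposite signs.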

How the data were processed

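RNA-seq libraries of KG-1 cells were analysed from the count table that the authors deposited: whole-number counts per gene, not normalized. Per the labels and the methods, STAR alignment to hg38 was followed by featureCounts. The labels and the methods name different library kits, and the strand setting and any use of molecular identifiers in counting are not given in the sources used here, so overlapping genes are named. Genes were annotated by identifier with GENCODE release 44 (43177 of 43836 matched) and promoters with RefSeq (10081 members matched).

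The main test was edgeR's quasi-likelihood test (edgeR 4.0.16 with TMM scaling, R 4.3.3) over genes with at least 1 count. CPM relate counts to the TMM-scaled total. Fold changes use a prior count of 0.125, and SE is the spread of log2 CPM between libraries. Calls needed a 2-fold change at an adjusted p under 0.1, as the study's methods set. Against a group with no count the fold is a bound at 3 counts per library, and against 1 to 3 counts it is a ratio with an exact binomial (Clopper-Pearson) interval, both covering counting error only. The interaction was fitted on 8 libraries.

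Named genes are FOXM1, the 10 highest and 10 lowest fold changes among called protein-coding genes holding 10 or more counts in each library, the 5 most abundant genes near silent in a group, up to 6 called genes per list by p (or the 2 smallest p), and all genes of the AraC lists. The members and lists were chosen with earlier results of these data known. The lists of replication-independent histones and histone mRNA genes were added after their values were seen, as were the search for stem-loops and motifs. The method was tested on simulated counts for AraC against DMSO (22842 genes, 200 changed). It recovered 99 of 100 genes changed by 1.5 on the log2 scale and 100 of 100 changed by 3, with 1 false call. How far this recovery holds for the spread of the real libraries and for genes of few counts was not tested. Some genes and lists are not reported here. Alternatives were DESeq2 1.42.0, other scalings, filters, thresholds and left-out libraries. Python 3.11.15 and matplotlib 3.10.9 were used for sequences and plots.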

Additional observations from a re-analysis of the deposited data

Results flagged for a closer look

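The AraC effect differed between FOXM1-KD and control cells, by the interaction term of edgeR's quasi-likelihood test with Benjamini-Hochberg adjustment, in the 38 named genes given here, each with a mean of at least 10 counts in the FOXM1-KD libraries. Values are the log2 effect in FOXM1-KD minus that in control cells. Each effect rests on 2 libraries per group.

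The effect was more positive in FOXM1-KD cells for CHAC1 (3.21), ITGA2B (3.37), ITGB7 (2.83), CXCL8 (2.55), HMOX1 (2.47), BTG2 (2.43), GBP2 (2.35), TRAF1 (2.26), PIF1 (2.25), PLK2 (2.05) and CDKN1A (1.98). It was also more positive for IFIT2 (1.64), NT5M (1.33), PLK1 (1.28), CDC20 (1.23), H1-10 (1.15), HMMR (1.14), KIF20A (1.07) and VCAN (1.04).

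The effect was more negative for IRF8 (-4.42), MPO (-3.66), FHDC1 (-3.04), PEG10 (-2.54), JUN (-2.05), CEBPA (-2.04), SAMHD1 (-1.98), GAS7 (-1.73), ID2 (-1.69), CD180 (-1.66), MT-ATP8 (-1.43), CCNE1 (-1.42), FLT3 (-1.21), CXCR4 (-1.18), HSPB1 (-1.12) and BCL2 (-1.07). For GJC1 (-5.63), NCS1 (-4.89) and GJB2 (-4.73) the control effect is fitted against 0 to 2 counts. In summed counts per library size the control ratios were 319 and 172 for GJC1 and NCS1, and GJB2 was at least 16.3-fold higher, while the FOXM1-KD log2 effects were 2.45, 2.16 and 3.95.

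Several of these genes had very different levels in the 2 populations before treatment. MPO was at 94451 and 90669 counts in FOXM1-KD cells given DMSO and at 35 and 48 in control cells, and its AraC effects were -1.42 and 2.24. IRF8 was at 1785 and 4763 counts against 3 and 2, and CEBPA at 12849 and 14601 against 486 and 480. CHAC1 ran the other way in level, at 144 and 39 counts in FOXM1-KD cells and 1964 and 2606 in control cells, with effects of 1.95 and -1.27. The part of the starting level in the difference was not tested.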

How the results depend on the processing

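The number of genes called for AraC against DMSO (1302) was 766 with all 16 libraries in the fit and 4208 without the fold threshold, and stayed within 1.5 times it under the other scalings, filters and thresholds and DESeq2 (1046). With each library left out it ran from 0 to 1424, the 0 coming from either AraC library with all genes fitted; on members alone, an alternative chosen after seeing the data, it ran from 1213 to 1424. Such fits assume that the lone library left in a group varies like the other group. AraC against venetoclax (934) gave 518 with DESeq2, 54 with edgeR's expression filter and 56 on members alone, and 76 to 2529 with each library left out. The interaction (1205) gave 803 with the expression filter and 420 with all 16 libraries, and 265 to 1590 with each library left out. No paired analysis of AraC against DMSO was run because the titles of the DMSO libraries carry no replicate number. Same-numbered libraries of the other groups deviated together, with a correlation of 0.502 to 0.783 over 10516 genes in 10 pairs of groups, though each pair of groups holds only 2 such pairs, and the replicate block for venetoclax gave 1028 calls, or 1004 on members alone, where the fit without it gave 56. Of 93 called named genes all lost the call without an AraC library in the fit on all genes, and 15 lost it without some library on members alone. Scaled by total counts CPSF3 and NT5C2 changed sign, to 0.045 and 0.022. With a library left out 7 genes near 0 changed sign, with log2 values from -0.084 to 0.061 for CPSF3, -0.003 to 0.099 for DCTD, -0.07 to 0.29 for H2AX, -0.41 to 0.013 for HINFP, -0.055 to 0.245 for NASP, -0.084 to 0.019 for NT5C2 and -0.244 to 0.038 for TUT7, none of them called. The cause of these changes was not tested. With 2 libraries per group, genes of few counts were measured least precisely.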

Other observations

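Outside the lists, 48 called protein-coding genes averaged at least 1000 counts, 29 of them higher and 19 lower after AraC, and the ones described here were picked with their values in view. The neighboring genes STAT5A and STAT5B, which carry cytokine receptor signals, both fell. STAT5A went from 13687 and 14025 counts in DMSO to 6369 and 5567 after AraC (log2 -1.37, adjusted p = 1.7e-06), and STAT5B from 5752 and 6331 to 2476 and 2364 (log2 -1.48, adjusted p = 9.56e-07). In FOXM1-KD cells STAT5A rose by 1.14 and STAT5B was at 0.07. NRROS and RCSD1 fell by 1.41 and 1.51.

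Of the abundant genes that rose, 6 are given here. HELLS, a chromatin remodeler of DNA methylation, went from 3708 and 3767 counts to 8066 and 10642 (log2 1.15, adjusted p = 1.07e-05). PCLAF, a partner of PCNA, rose by 1.38, FAM111A, a protease at replication forks, by 1.04, and ESCO2, which acetylates cohesin in S phase, by 1.06. PYGL, the liver glycogen phosphorylase, rose by 1.39 and LAPTM5, a lysosomal protein of blood cells, by 1.18.

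Further lists held few calls, where 9.24% of all members were called. TFEB was the only called lysosome gene (1 of 23) and HSPB1 the only heat shock gene (1 of 14). The integrin ITGB7 rose by 1.56. MYCN and MLXIPL were called in the MYC network (2 of 11). MLXIPL held 24 and 17 counts against 2 and 9, and its call was lost under DESeq2. It is a member only through its AraC counts. Sterol and fatty acid synthesis, metallothioneins and the mitochondrial genome had no call among 27, 3 and 13 members by edgeR or DESeq2, and 12, 1 and 2 of these had an unadjusted p below 0.05, where 38.6% of all members did.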
